A study of Rattus norvegicus with 172 samples.

Results

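The lowest furan dose of a feeding study in rats was compared with its own controls, gene by gene, in liver. Rats whose names begin with MA0 formed the treated group (8 rats, Diet A, 0.03 mg/kg body weight per day of furan) and rats whose names begin with MC0 formed the control group (8 rats, Diet C, dose 0). These 16 rats, with 32 run columns, were chosen by name and label only, out of 38 rats in the furan experiment and 70 rats in the series. All were male Fischer 344 rats, the exposure lasted 90 days, and the tissue was flash-frozen whole liver. The model also held the other furan groups: 8 rats on 0.12, 7 on 0.5 and 7 on 2.0 mg/kg daily. Each furan rat is a separate animal with 2 sequencing runs, which were added up and are not replicates. The labels name no batch, kill time or litter. Whole liver RNA mixes hepatocytes with other cells, so fewer cells of a type and less RNA per cell cannot be told apart.

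Furan is a volatile heterocycle that forms when food is heated. In liver it is oxidised mainly by the cytochrome P450 Cyp2e1 to a reactive dialdehyde that binds thiols and amines of proteins, and higher doses injure the liver and its bile ducts. Glutathione conjugation, aldehyde-clearing enzymes and genes of the transcription factor NRF2 are the usual answer of hepatocytes to such electrophiles. Liver also follows hormones of stress and feeding and a daily clock, through glucocorticoid-responsive genes such as Fkbp5, Zbtb16 and Per1 and clock genes such as Cry2 and Dbp.

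Each rat carried 11.4 to 27.7 M counts at 0.03 (median 16.2 M) and 14 to 18.4 M in controls (median 16.3 M), and 15636 to 17100 genes had counts. The scaling factors for library composition (TMM) ran from 0.894 to 0.978 over the 16 rats. Over 11660 genes the root mean square log2 difference between a pair of controls was 0.423 (median of 28 pairs). Between a control and a treated rat it was 0.415 (median of 64 pairs), no larger than within the control group. Hepatocyte markers were abundant, with Alb, the serum albumin gene, at a median of 123000 CPM in controls and 122000 CPM at 0.03 (CPM are counts scaled by library size and composition).

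Few genes differed between the groups. Of 12727 genes tested with the edgeR quasi-likelihood test, 9 (0.0707%) passed an adjusted p of 0.05. The 6 that rose (0.0471%) were Zfp354a, Lpin1, Klf13, Arhgef26, Sgms1 and Eif2ak3, and 3 fell (0.0236%), among them Kcnk5 and Il4r. The named genes encode transcription factors, lipid enzymes, signalling proteins and a channel, and none of them is an enzyme of furan metabolism. Their edgeR adjusted p lay between 0.0466 and 0.05 after rounding, and the next gene stood at 0.0606. At an adjusted p under 0.1 there were 31 genes, 23 higher and 8 lower. At an unadjusted p under 0.05 there were 1162 genes (9.13%), 4.85% higher and 4.28% lower. The median log2 fold change was 0 and the median size of a change, in either direction, was 0.09. TMM scaling centres the bulk of genes near 0, so this median could not show a shift shared by all genes.

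These 9 calls rest on a narrow margin. A fit on the 16 rats alone called 0 genes (1225 at an unadjusted p under 0.05), limma voom called 0 (1140 at an unadjusted p under 0.05), and DESeq2 called 49. Leaving out 1 rat at a time gave 0 to 62 calls (940 to 1424 genes at an unadjusted p under 0.05). It gave 0 without treated rat 21, 22, 23, 27, 29 or 30 or control rat 3, 7, 8 or 12, and 1 without control rat 11. Without treated rat 25 there were 62 calls, without treated rat 26 there were 18, and without control rats 9 and 10, each left out alone, 26 and 15. The direction of each of the 9 genes was the same in all 25 alternative settings. These settings reuse the same rats, and the genes were picked for their difference, so this is no separate evidence.

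Among the transcription factors, Zfp354a (ENSRNOG00000003634), a KRAB zinc finger repressor, gave the highest estimate. It stood at 10.4, 31.2 and 53.7 CPM in controls (lowest, median and highest) and at 26.9, 112 and 218 CPM at 0.03. The groups overlapped, with 5 of 8 treated rats above every control. The log2 fold change was 1.79 ± 0.38 (SE, n = 8 and 8; edgeR adjusted p = 0.05), which is 3.45-fold with a 95% interval of 2.03 to 5.85. It was the 1 gene whose interval lay wholly beyond 2-fold.

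Klf13 (ENSRNOG00000015822), a Krüppel-like zinc finger factor that answers glucocorticoids in several tissues, had the smallest p. Its level was 1.97, 2.85 and 3.99 CPM in controls and 3.21, 5.89 and 7.62 CPM at 0.03. All 8 treated rats lay above the control mean and 7 above every control. It rose by 0.92 ± 0.17 (edgeR adjusted p = 0.0466).

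Both lipid enzymes rose. Lpin1 (ENSRNOG00000004377) encodes lipin 1, a phosphatidate phosphatase that also acts as a transcriptional coactivator and is induced by fasting and glucocorticoids. It stood at 65.9, 115 and 282 CPM in controls and 156, 417 and 839 CPM at 0.03, a change of 1.55 ± 0.32 (edgeR adjusted p = 0.05). Every treated rat but MA025_L, at 156 CPM, exceeded every control. Sgms1 (ENSRNOG00000012536), a sphingomyelin synthase, went from 20.6, 24.8 and 27 CPM to 21.1, 34.4 and 47.2 CPM (0.51 ± 0.11, edgeR adjusted p = 0.0469). Here too 7 of 8 treated rats lay above every control.

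The remaining genes act in signalling and transport. Arhgef26 (ENSRNOG00000014549), an exchange factor for small GTPases, went from 24.2, 29.6 and 38.8 CPM to 29.6, 51.4 and 62.7 CPM (0.69 ± 0.14, edgeR adjusted p = 0.0469). Eif2ak3 (ENSRNOG00000006069), which encodes the endoplasmic reticulum stress kinase PERK, went from 15.8, 17 and 23.5 CPM to 20.1, 24.8 and 26.7 CPM (0.41 ± 0.08, edgeR adjusted p = 0.0469). Treated rats lay above every control in 6 of 8 cases for Arhgef26 and 5 of 8 for Eif2ak3. Kcnk5 (ENSRNOG00000047005), a background potassium channel gene, stood at 13.5, 19.1 and 34.2 CPM in controls and 6.14, 8.91 and 17.5 CPM at 0.03, and fell by 1.11 (SE 0.23, edgeR adjusted p = 0.05). Il4r (ENSRNOG00000015441), the receptor subunit for interleukin 4, stood at 93.5, 142 and 149 CPM in controls and 87.2, 94.5 and 113 CPM at 0.03, and fell by 0.42 (SE 0.08, edgeR adjusted p = 0.0469). All 8 treated rats lay below the control mean for both genes, and the groups overlapped for both.

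**Figure D1:**
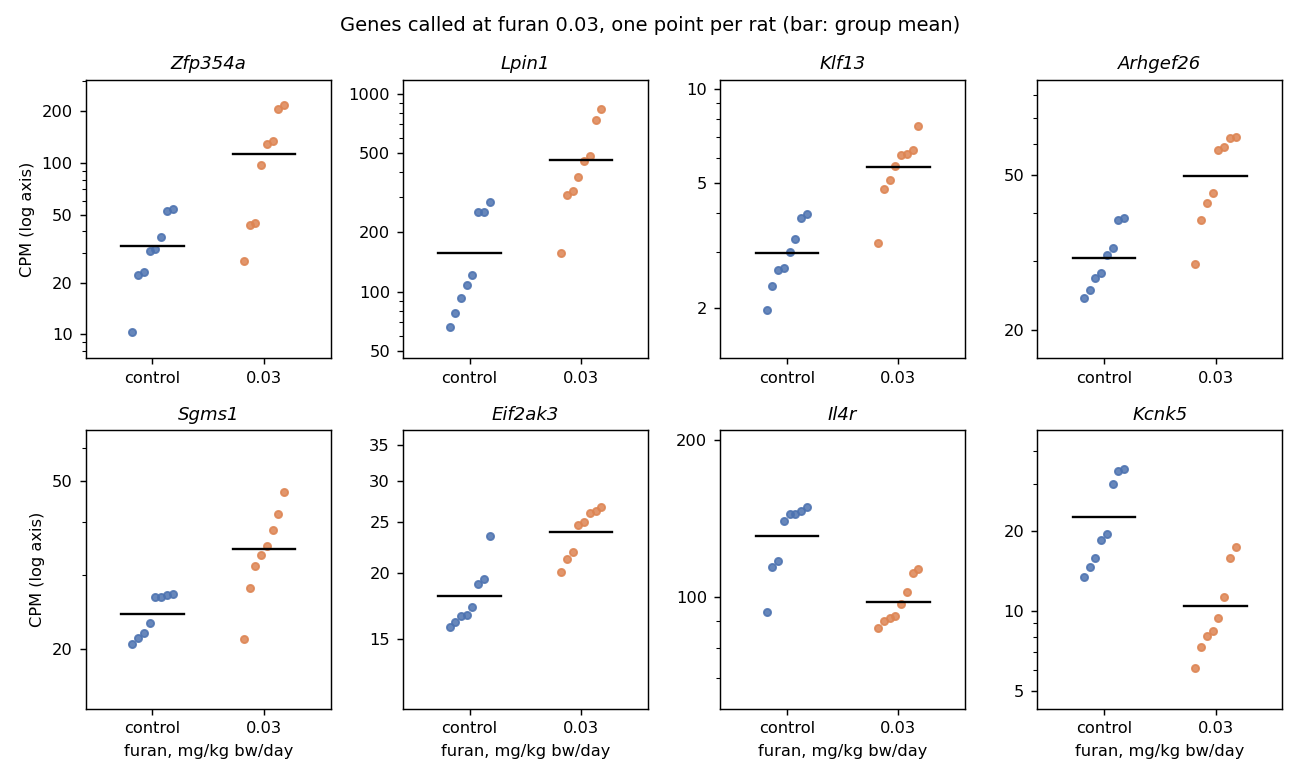
CPM (log axis) of 8 of the 9 genes that passed the test, in 8 control rats and 8 rats at furan 0.03 mg/kg body weight per day, one point per rat with bars at group means. In each gene 4 to 7 of 8 treated rats lie beyond every control.

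The treated rats did not contribute alike. Rats MA023_L and MA029_L lay beyond every control in 9 of the 9 genes, and MA021_L, MA022_L, MA027_L and MA030_L in 8. MA026_L did so in 4 and MA025_L in 1. MA025_L was the lowest treated rat for Zfp354a, Lpin1, Klf13, Arhgef26 and Sgms1. Among controls, MC009_L lay beyond every treated rat in 2 of the 9 genes and MC010_L in 3, while the other 6 did so in 6 to 8. MC009_L was the highest control for Klf13 (3.99 CPM), Lpin1 (282 CPM) and Zfp354a (53.7 CPM) and the lowest for Kcnk5 (13.5 CPM). These rats were ranked on the called genes themselves, so the counts describe the calls and are no separate evidence.

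Promoter windows are printed for the 3 genes with the largest called changes, since they show what sequence lies before the genes that moved most. They come from RefSeq (build GRCr8, a later build than the Rnor 6.0 build of the counts) and cover 250 bases upstream of the start, written 5′ to 3′ on the gene's strand. A match on either strand to TGANGTCA (N, any base), a loose form of the cAMP response element, is in capitals.
Zfp354a, chr10:35897013-35897262, + strand: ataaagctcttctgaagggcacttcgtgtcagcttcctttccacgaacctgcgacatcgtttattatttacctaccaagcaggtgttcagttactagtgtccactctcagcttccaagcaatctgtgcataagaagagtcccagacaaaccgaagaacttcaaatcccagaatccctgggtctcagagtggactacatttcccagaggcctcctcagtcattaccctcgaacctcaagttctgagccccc
Lpin1, chr6:45108943-45109192, - strand: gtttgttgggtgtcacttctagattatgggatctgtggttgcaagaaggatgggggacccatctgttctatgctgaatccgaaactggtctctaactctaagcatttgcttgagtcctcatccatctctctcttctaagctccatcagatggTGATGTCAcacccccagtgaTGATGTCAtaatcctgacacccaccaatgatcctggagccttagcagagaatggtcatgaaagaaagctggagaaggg
Kcnk5, chr15:4171375-4171624, + strand: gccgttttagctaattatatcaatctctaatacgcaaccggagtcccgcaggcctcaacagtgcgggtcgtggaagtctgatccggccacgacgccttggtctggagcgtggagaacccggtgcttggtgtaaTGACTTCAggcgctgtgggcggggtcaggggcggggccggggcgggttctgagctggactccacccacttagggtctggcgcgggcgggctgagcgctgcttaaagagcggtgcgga
The Lpin1 window holds 2 such matches, the Kcnk5 window 1 and the Zfp354a window 0, and 8.88% of 33469 rat windows of this length hold at least 1. A glucocorticoid response element (in 0.373% of windows), an E-box (CACGTG, 5.59%) and a D-box (TTANGTAA, 2.04%), each searched on both strands, were in 0 of the 7 called genes with an entry. The motifs were chosen after the genes' values were known. A match describes letters only, and no match says only that these letters are not in this window.

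Below the threshold, the genes that filled each direction to 10 by smallest p, placeholder symbols such as RGD numbers left out, had adjusted p of 0.0606 to 0.104 in edgeR. The higher ones were B3galt1, a galactosyltransferase gene (log2 fold change 0.72 ± 0.16), Mdfic, a transcriptional modulator (0.57 ± 0.13), the corepressor gene Tle1 (0.55 ± 0.12) and the calcium sensor gene Stim2 (0.44 ± 0.1). The lower ones included Cry2, a repressor of the clock (-0.65 ± 0.15), Smad3, an effector of TGF-beta (-0.42 ± 0.1), and Rnf43, a feedback inhibitor of Wnt receptors (-0.86 ± 0.21). Tprn (-0.68), Fam102a (-0.48), Sox13 (-0.28) and Rgs12 (-0.51) completed that group. Cry2 ran at 20.6, 29.9 and 38.1 CPM in controls and 14.1, 16.3 and 28 CPM at 0.03, with 6 of 8 treated rats below every control.

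The groups did not overlap in 4 of 12727 genes (0.0314%), 2 higher (0.0157%) and 2 lower (0.0157%). They included Zscan20, a zinc finger gene (-0.27, edgeR adjusted p = 0.277), Lilrb4, an inhibitory receptor gene of myeloid cells (0.98, edgeR adjusted p = 0.724), and the non-coding RNA gene RF00100 (0.91, edgeR adjusted p = 0.089). Lilrb4 ran at 0.756, 0.983 and 1.22 CPM in controls and 1.27, 1.59 and 4.67 CPM at 0.03. These 3 did not pass the test. RF00100 passes the count filter only through other furan groups and belongs to a family with many near-identical copies, so its counts are uncertain.

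The second question was which sizes of change the data can exclude. For each gene a 95% interval was placed around the log2 fold change, and a size was taken as excluded where the whole interval lay inside it. The median interval reached 0.21 log2 units to either side of the estimate. Changes of 2-fold or more in either direction were outside the interval for 11924 genes (93.7%), and of 1.5-fold or more for 9906 (77.8%). A rise of 25% and the matching fall of 20% were both outside it for 6431 genes (50.5%). The largest fold not excluded was under 1.81 for 90% of genes. For 803 genes the interval reached 2-fold or more, and for 57 it reached 4-fold or more. In the other direction, 30 intervals lay wholly beyond that rise or fall and 5 wholly beyond 1.5-fold.

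Precision followed expression. In the lowest-expressed 4243 genes (0.395 to 5.49 CPM) the median fold not excluded was 1.52, and 46.8% of intervals lay within 1.5-fold. In the middle 4242 genes (5.5 to 24.2 CPM) it was 1.2, with 92.1% within 1.5-fold, and in the highest 4242 genes it was 1.16, with 94.6%. The lowest group held 1 of the 9 calls, the middle 3 and the highest 5. These intervals hold gene by gene. Widened by Bonferroni so that they hold for all genes at once, they lay within 1.5-fold for 5372 genes (42.2%) and within 2-fold for 8674 (68.2%). Of the genes tested, 857 passed the count filter only because other furan groups carry them; 22 of these were within 1.5-fold and 0 were called, and limits are not read from them one by one below. Of the 11870 that pass in the 16 rats alone, 9884 (83.3%) were within 1.5-fold. The other 20156 genes of the table had too few counts to test, and nothing is excluded for them.

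**Figure D2:**
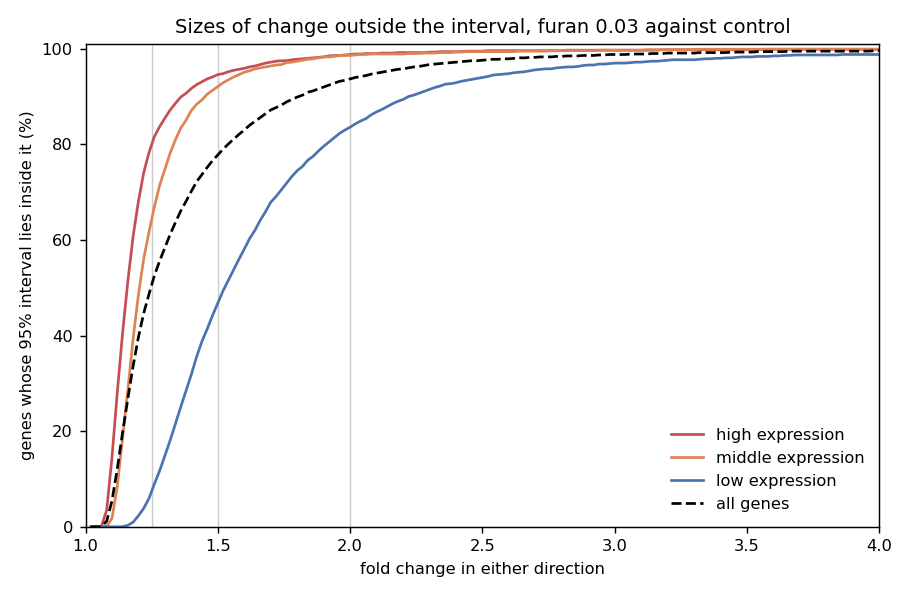
Percent of genes whose 95% interval lies within a given fold change (x axis, either direction), for all 12727 genes and for the low, middle and high expression groups. At 1.5-fold the curves stand at 46.8%, 92.1% and 94.6% for low, middle and high, and at 77.8% for all genes.

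Among genes with at least 1 CPM in the higher group, the widest intervals belonged to genes that varied widely between rats of one group; these are named for their width, after their values were seen. Mmp12, a macrophage elastase gene, ran at 0.484 to 1.02 CPM in controls and 0.443 to 12 CPM at 0.03, and a change up to 12.1-fold was not excluded. Cxcl1, a neutrophil-attracting chemokine gene, ran at 0.781 to 21.4 CPM in controls and 0.83 to 4.96 CPM at 0.03 (-1.17 ± 0.77), and a decrease of up to 6.64-fold was not excluded.

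A panel of 40 genes, picked with earlier results of these data known, was followed. Of these, 1 passed the test, Klf13, beside 0.0707% of all genes. Cyp2e1, which activates furan, stood at 2480, 3200 and 4370 CPM in controls and 2440, 2890 and 4110 CPM at 0.03, a log2 fold change of -0.09 with a 95% interval from -0.41 to 0.23. A change of more than 1.33-fold was thereby excluded. Gstp1, the placental-form glutathione S-transferase, ran at 7.29, 14.1 and 17.4 CPM in controls and 10.2, 12 and 15.9 CPM at 0.03, and its interval of -0.64 to 0.52 excluded changes above 1.56-fold. The conjugate exporter Abcc3 was bounded at 1.39-fold, the epoxide hydrolase Ephx1 at 1.44-fold and Cd24, a surface protein of immature liver cells, at 1.57-fold. The reductase Akr1b8 was bounded at 2.63-fold. Limits shift where the spread comes from the 16 rats alone. In that fit they were 1.28-fold for Cyp2e1, 1.31-fold for Gstp1, 1.28-fold for Abcc3, 1.45-fold for Ephx1, 1.6-fold for Cd24 and 1.97-fold for Akr1b8. The aldehyde dehydrogenase Aldh1a7 and the peroxidase Gpx2 are among 5 panel genes that do not pass the count filter in the 16 rats alone, so no limit is given. Aldh1a7 had means of 0.206 ± 0.094 CPM in controls and 0.162 ± 0.14 CPM at 0.03 (SD, n = 8 and 8), and Gpx2 0.479 ± 0.355 and 0.964 ± 0.533 CPM.

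Proliferation genes of the panel did not pass the test. Tyms, the thymidylate synthase gene, had an interval of -0.3 to 0.32. Mki67, the proliferation antigen gene, was bounded at 1.63-fold (0, interval -0.69 to 0.7) and the replication helicase gene Mcm3 at 1.83-fold. Cdkn1a, the cell cycle inhibitor p21, ran at 37.6, 76.3 and 118 CPM in controls and 78.2, 118 and 139 CPM at 0.03. All 8 treated rats lay above the control mean, yet the difference of 0.51 (interval 0.15 to 0.87) did not pass (edgeR adjusted p = 0.315). Of the other p53 targets in the panel, Mdm2 gave 0.09 (interval -0.15 to 0.33) and Ccng1 0.14 (bounded at 1.3-fold). Over the 22 p53 targets tested, 3 were higher and 2 lower at an unadjusted p under 0.05, beside 4.85% and 4.28% of all genes. Of the 22, 0 passed the test, beside 0.0707% of all genes. The median of the 22 was 0, and their estimates ran from -0.48 (Eda2r) to 0.75 (Plk3).

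Panel genes of hepatocyte function had limits from tight to wide. Alb was bounded at 1.12-fold, Cyp2d1 at 1.27-fold, the male-specific Cyp2c11 at 1.29-fold, the bile acid ligase gene Slc27a5 at 1.32-fold and Cyp1a2 at 1.36-fold. The clock gene Arntl was bounded at 1.18-fold. Cyp7a1, the rate-limiting enzyme of bile acid synthesis, was bounded at 1.66-fold, as was Hamp, the iron hormone hepcidin. The lipogenic genes gave wide limits, 2-fold for the fatty acid synthase gene Fasn and 4.11-fold for the desaturase gene Scd. Scd ran from 10.3 to 1830 CPM within the controls and from 12.1 to 1380 CPM within the treated rats.

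Panel genes of scarring, inflammation and bile ducts were bounded loosely or not at all. Col1a1, a collagen chain gene, stood at 4.92, 9.64 and 19.5 CPM in controls and 6.58, 14.4 and 32.8 CPM at 0.03. An increase of up to 3.93-fold was not excluded. Where the spread came from the control and 0.03 rats alone, the Col1a1 limit was 2.69-fold (interval -0.03 to 1.43). Spp1, osteopontin, the macrophage receptor gene Trem2 and Cftr, the chloride channel of bile ducts, pass the count filter only through other furan groups, so no limit is given. Spp1 had means of 0.396 ± 0.16 CPM in controls and 0.866 ± 0.879 CPM at 0.03 (SD, n = 8 and 8), and Trem2 0.0652 ± 0.0797 and 0.184 ± 0.242 CPM. Cftr ran at 0.0674, 0.245 and 0.347 CPM in controls and 0.316, 0.503 and 1.03 CPM at 0.03, and the groups overlapped.

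**Figure D3:**
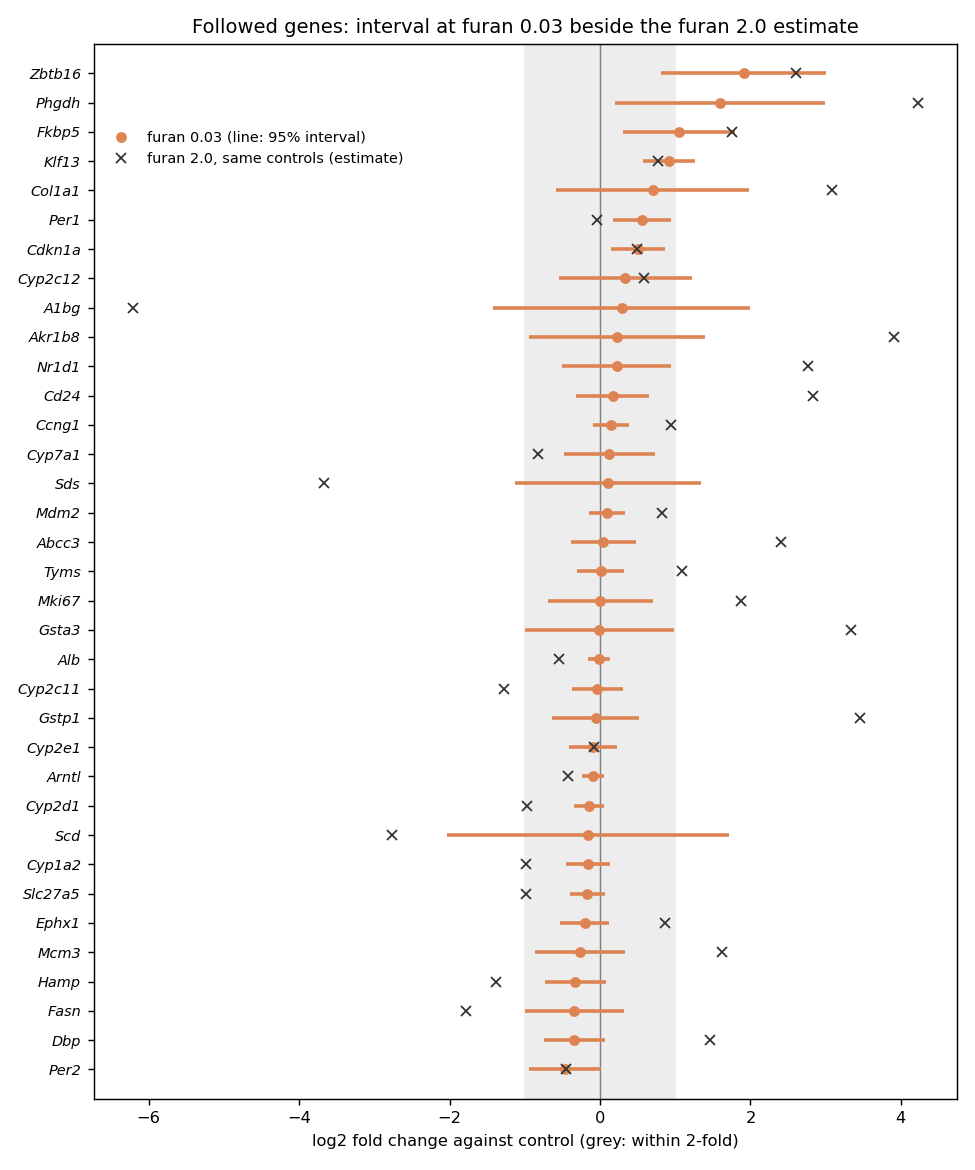
Log2 fold change against control of the 35 followed genes that pass the count filter in the 16 rats, at furan 0.03 (points, with 95% intervals as lines) and, for scale, the estimate at furan 2.0 against the same 8 controls (crosses); the grey band spans 2-fold in either direction. At 0.03 the intervals of 23 of 35 genes lie within 2-fold.

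Fixed lists of genes by pathway gave called members in 1 list, glucocorticoid response. In the glucocorticoid list 2 of 29 members tested rose, Klf13 and Lpin1, and 0 fell, beside 0.0471% and 0.0236% of all genes. The list had a median of 0.18 (log2) beside 0 over all genes tested. At an unadjusted p under 0.05, 8 members were higher and 1 was lower, against the 4.85% and 4.28% of all genes. The list was chosen with earlier results of these data known, so its counts describe these data and are no separate evidence. Zbtb16, a zinc finger gene and well-known glucocorticoid target, ran at 4.3, 5.81 and 12.1 CPM in controls and 2.34, 11.1 and 75.7 CPM at 0.03 (1.91 ± 0.54, edgeR adjusted p = 0.184). The 3 treated rats above every control were MA023_L, MA029_L and MA030_L, at 37.1, 45.1 and 75.7 CPM, and MA021_L, at 2.34 CPM, was below every control. Fkbp5, a cochaperone of the glucocorticoid receptor, ran at 11.2, 12.9 and 15.3 CPM in controls and 11.5, 22.2 and 53.4 CPM at 0.03 (1.05 ± 0.36, edgeR adjusted p = 0.327). The highest Fkbp5 rats were MA030_L (53.4 CPM) and MA023_L (47.7 CPM).

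Other genes of the glucocorticoid list differed among themselves. Klf9, a Krüppel-like factor induced by the same hormone, ran at 35.1, 48.9 and 68.8 CPM in controls and 55.1, 73.8 and 99.1 CPM at 0.03 (0.61 ± 0.14, edgeR adjusted p = 0.089). It was named after its value was seen. Per1, a clock gene with glucocorticoid control, gave 0.56 (interval 0.17 to 0.95, edgeR adjusted p = 0.311). Dusp1, a phosphatase gene induced early by the hormone, gave 0, and G6pc, the glucose-releasing phosphatase, gave the lowest estimate in the list, -0.53. Estimates were above 0 in 19 of the 29 members, beside 6369 of all 12727 genes.

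Clock genes pointed both ways and none passed the test, beside 0.0707% of all genes. Of 23 tested, 5 were higher and 4 lower at an unadjusted p under 0.05, beside 4.85% and 4.28% of all genes. The median was -0.08. Nampt, the NAD salvage enzyme under clock control, gave the highest estimate (0.84 ± 0.22, edgeR adjusted p = 0.173), and Cry2 the lowest. Dbp, an output factor of the clock, gave -0.34 (interval -0.74 to 0.06), Per2 -0.46 and Nr1d1, the REV-ERB alpha gene, 0.22.

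Genes of furan handling gave 0 calls in every list, beside 0.0707% of all genes, a share at which short lists hold few or no calls. At an unadjusted p under 0.05, 4.85% of all genes were higher and 4.28% lower. Among 17 genes of furan activation and aldehyde clearance the median was -0.13, 0 were higher and 1 lower at an unadjusted p under 0.05, and 11 intervals lay within 1.5-fold. Among 24 NRF2 and electrophile genes the median was -0.04, with 0 higher and 2 lower at an unadjusted p under 0.05 and 17 within 1.5-fold. All 19 glutathione S-transferase genes tested had an estimate below 0, beside 6358 of all 12727 genes. Their median was -0.12, 1 of them had an unadjusted p under 0.05, and 16 intervals lay within 1.5-fold. With library size alone as the scale, an alternative chosen after seeing the data, 18 of the 19 were below 0. Nfe2l2, the NRF2 gene itself, ran at 91.7, 111 and 144 CPM in controls and 61.3, 87.1 and 129 CPM at 0.03 (-0.44 ± 0.12, edgeR adjusted p = 0.158), the lowest estimate in its list. Slc7a11, the cystine transporter gene, had the highest (1.97 ± 1.22, edgeR adjusted p = 0.667), and it does not pass the count filter in the 16 rats alone. Genes named as the extremes of a list were chosen after their values were seen.

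Housekeeping processes gave the tightest limits. In all 29 proteasome genes tested a rise of 25% and a fall of 20% lay outside the interval, as in 47 of 48 genes of mitochondrial oxidative phosphorylation. The exception was Cycs, cytochrome c, bounded at 1.67-fold. Acute phase genes were within these limits in 15 of 17 and within 1.5-fold in 17. The medians of these lists were -0.04, -0.05 and 0.02. These lists held 0, 0 and 1 genes at an unadjusted p under 0.05, beside 9.13% of all genes. By contrast 12 of 34 cell cycle genes (median -0.12), 13 of 33 matrix genes (median 0.16) and 4 of 20 early growth genes (median 0.11) lay within 1.5-fold. Estimates were above 0 in 28 of the 33 matrix genes, beside 6369 of all 12727 genes. The highest of the 33, the periostin gene Postn (2.06), passes the count filter only through other furan groups. Of the 33, 0 passed even an unadjusted p of 0.05, beside 4.85% of all genes higher and 4.28% lower.

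**Figure D4:**
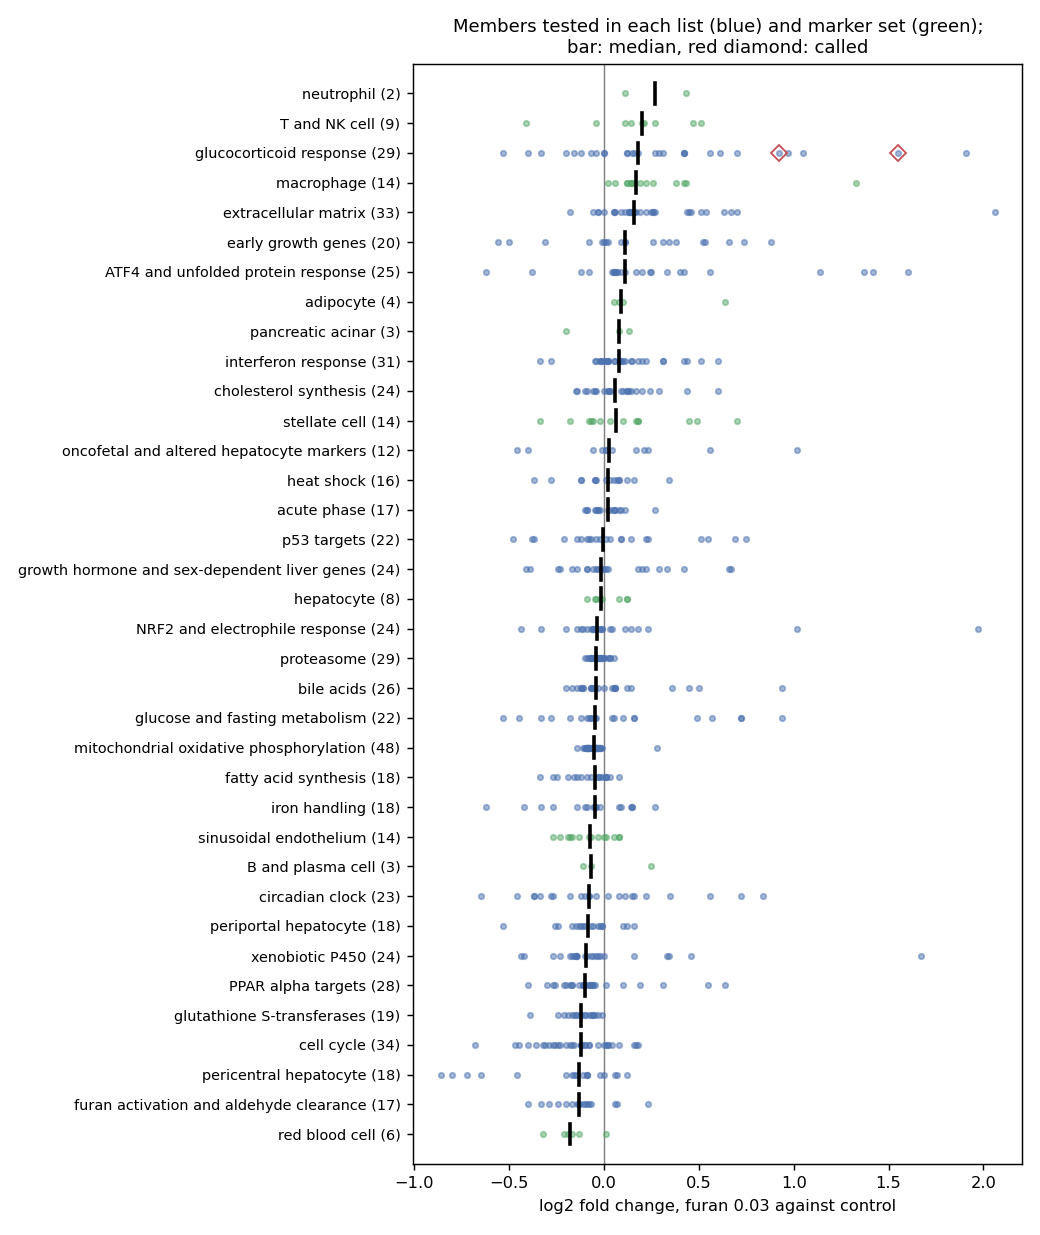
Log2 fold change at furan 0.03 of every tested member of 26 gene lists (blue) and 10 sets of cell type markers (green), with the number tested in brackets, medians as bars and the called genes Klf13 and Lpin1 as red diamonds. List medians run from -0.13 to 0.18 and marker medians from -0.18 to 0.27.

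The stress kinase gene Eif2ak3 belongs to the unfolded protein response but was not on the list for it. In that list 0 of 25 members passed, beside 0.0707% of all genes, and the median was 0.11. Estimates were above 0 in 21, beside 6369 of all 12727 genes. At an unadjusted p under 0.05, 6 were higher and 1 lower, beside 4.85% and 4.28% of all genes. The widest members of that list were the serine and amino acid genes under the factor ATF4. Phgdh, the first enzyme of serine synthesis, ran at 0.337, 0.628 and 7.22 CPM in controls and 0.443, 1.36 and 19.6 CPM at 0.03 (1.6, interval 0.2 to 2.99, edgeR adjusted p = 0.479). Fitted on the 16 rats alone, the interval was -0.38 to 3.54. Phgdh was above 5 CPM in treated rats MA021_L, MA022_L and MA023_L (19.6, 16.3 and 5.11 CPM) and in controls MC003_L and MC004_L (7.22 and 5.22 CPM). In the other 11 rats the level was 1.58 CPM or less.

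The same 5 rats were the highest of their groups in other genes of that kind, named after their values were seen. Psat1, the next enzyme of serine synthesis, stood at 24.4, 35.7 and 11.9 CPM in MA021_L, MA022_L and MA023_L and at 13.4 and 9.01 CPM in MC003_L and MC004_L, with 6.08 CPM or less in the rest. Asns, asparagine synthetase, stood at 21.9, 21.3 and 7.32 CPM and at 6.52 and 7.77 CPM in these rats, with 2.4 CPM or less in the rest. Scd, which follows insulin and feeding, was lowest in these rats, at 12.1, 113 and 115 CPM and at 10.3 and 48.4 CPM, beside 422 to 1380 CPM in the other treated rats and 143 to 1830 CPM in the other controls.

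Markers of other cell types differed little in sum. The 14 macrophage markers tested all had estimates above 0 (median 0.17), beside 6369 of all 12727 genes. Trem2, the highest of them (1.33), passes the count filter only through other furan groups. Markers of a cell type can vary together between rats, so they are not separate observations. Of these 14 markers, 0 passed the test, beside 0.0707% of all genes. None of them had an unadjusted p under 0.05, beside 4.85% of all genes higher and 4.28% lower. Their summed level was 492 to 911 CPM in controls (median 559) and 564 to 978 CPM at 0.03 (median 688). Cholangiocyte markers summed to 296 to 488 CPM in controls and 282 to 453 CPM at 0.03, and 8 of the 15 tested had estimates above 0. Stellate cell markers summed to 390 to 536 and 360 to 535 CPM, endothelial markers to 177 to 607 and 270 to 579 CPM, and red cell markers to 222 to 440 and 232 to 352 CPM. B and plasma cell markers summed to 1.86 to 5.43 and 2.21 to 6.11 CPM. The part of cell mixture in the 9 calls was not tested.

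For scale, the higher furan doses were measured against the same 8 controls, so their values are set side by side and not counted together. Klf13 gave log2 fold changes of 0.92, 1.08, 0.98 and 0.77 at 0.03, 0.12, 0.5 and 2.0. Lpin1 gave 1.55, 1.47, 1.36 and 0.15, with a mean at 2.0 of 174 ± 29.1 CPM (SD, n = 7) beside 157 ± 89.8 CPM in controls (n = 8), and Zfp354a gave 1.79, 2.25, 2.04 and 0.78. Eif2ak3 gave 0.41, 0.44, 0.52 and 0.06. Zbtb16 gave 1.91, 2.79, 2.92 and 2.6, while Gstp1 gave -0.06, 0.19, 0.53 and 3.46. A control group that happened to lie low or high in a gene would move the values of that gene at every dose together.

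**Figure D5:**
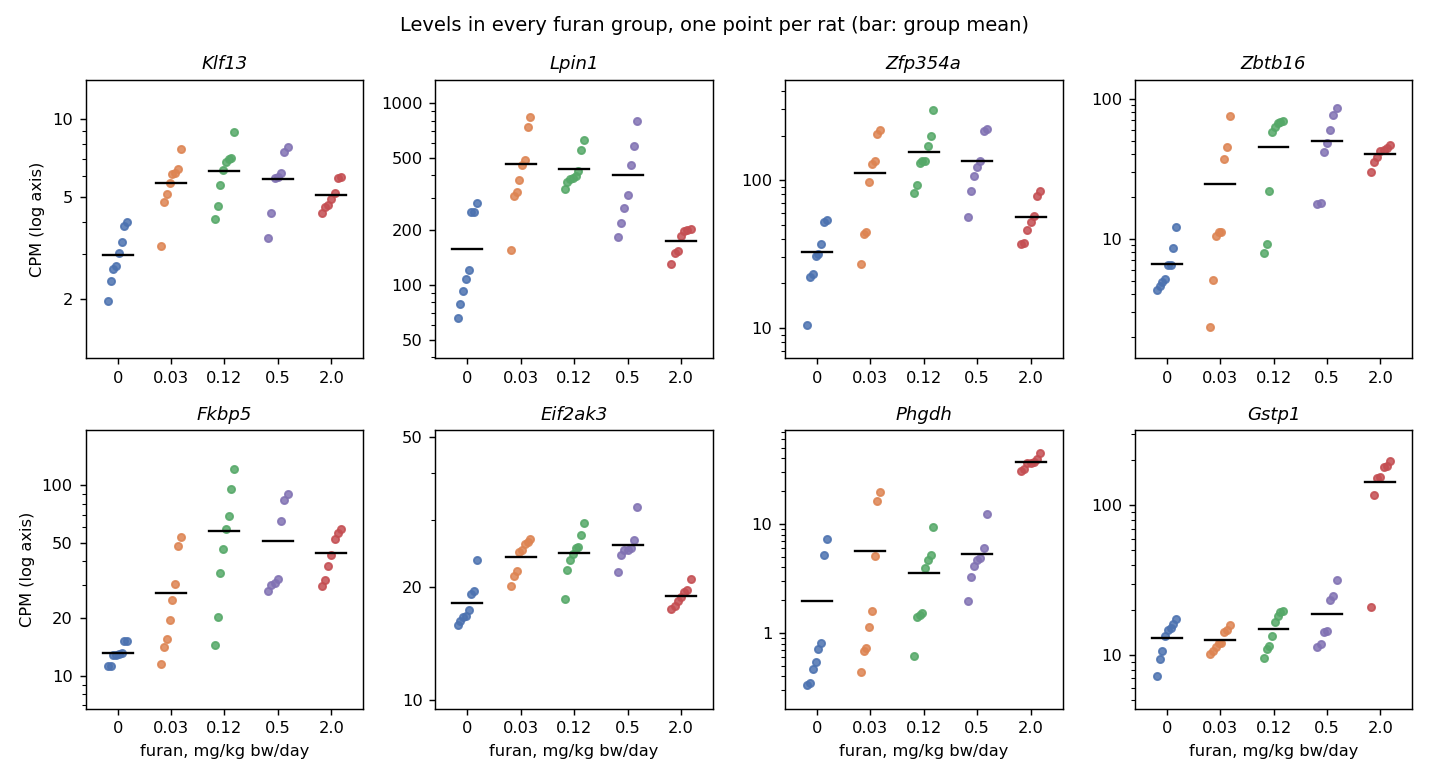
CPM (log axis) of 8 genes in every furan group (0, 0.03, 0.12, 0.5 and 2.0 mg/kg body weight per day; 8, 8, 8, 7 and 7 rats), one point per rat with bars at group means. Lpin1 has means of 460 CPM at 0.03 and 174 CPM at 2.0, whereas Gstp1 has means of 12.6 and 144 CPM.

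The lowest dose of 3-methylfuran, furan with a methyl group on its ring, was 0.02 mg/kg body weight per day and was set against 8 controls of its own, made with another library kit. Doses and kits differ, so its values are given beside those of furan 0.03 without a comparison. Klf13 gave -0.58 ± 0.22, Lpin1 -0.74 ± 0.21, Zfp354a -0.22 ± 0.3 and Zbtb16 -1.47 ± 0.49 (edgeR adjusted p = 0.525, 0.332, 0.924 and 0.431). Arhgef26 gave -0.37 ± 0.15, Sgms1 -0.06 ± 0.07, Eif2ak3 0 ± 0.08, Il4r 0.05 ± 0.11 and Kcnk5 0.01 ± 0.21. None of these genes passed the test at 3-methylfuran 0.02.

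In the authors' deposited table, 46 of 19424 genes had an adjusted p under 0.05 at furan 0.03, 33 with a positive and 13 with a negative signed fold. All 9 genes called with edgeR were among them. The smallest adjusted p in the authors' deposited table was 0.00112, for Klf13, at a signed fold of 1.8. The same authors' deposited table gave Zfp354a 3.09, Lpin1 2.65 and Kcnk5 -1.02, beside edgeR folds of 3.45, 2.93 and 0.463. Whether the authors shrank their fold changes is not stated in the sources used here, so sizes in the 2 sources may not be on 1 scale. Zbtb16, at a signed fold of 3.05 and an adjusted p of 0.0319 in the authors' deposited table, was past the threshold there and not in the edgeR fit.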

How the data were processed

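Poly(A) RNA of rat liver was sequenced in 2 runs per furan rat. The submitters' processing notes name the Rnor 6.0 build, STAR 2.7.1a and featureCounts 2.0.0, with DESeq2 1.26.0 for the comparisons. Not given in the sources used here are the annotation release, the strand setting and multimapper handling. The deposited counts are whole reads per gene and run, not normalized by the authors. Per the file headers, the authors' comparison table holds 1 fold change for each dose, with decreases written as negative numbers (a signed score of another kind than a ratio), and an adjusted p-value.

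Both runs of a rat were added up (chi-square over its degrees of freedom was 1.01 to 1.07 between runs and at least 6.54 between rats of a group). In R 4.3.3, edgeR 4.0.16 was fitted to all 38 furan rats (filterByExpr, minimum count 10, TMM scaling, robust quasi-likelihood F test, Benjamini-Hochberg over all genes tested), with no covariate. Standard errors are estimates over the square root of F, and 95% intervals use the t quantile of the fit. CPM are scaled by library size and TMM factor. The code was tested on simulated counts. Symbols were read from the authors' table, which names 19777 of 32883 genes; 89 of 788 listed symbols had no match. Alternatives were the 16 rats alone, other scalings and filters, single runs, DESeq2 1.42.0, limma 3.58.1 voom and leaving out each rat.

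Named genes were the called ones (filled to 10 a direction by smallest p), a panel of 40, the called and the 2 most abundant members of each list, and genes without overlap. Members, lists and panel were chosen with earlier results of these data known. The arrays mentioned in the design were not analysed here. An item among the called genes is not reported here.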

Additional observations from a re-analysis of the deposited data

Results flagged for a closer look

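Single rats that stood apart from the rest of their group were sought with Dixon's test in 128 groups of values, of which chance flags about 5 percent; 9 were found, 6 at furan 0.03 and 3 in controls. Rat MA030_L accounted for 5 of them. In it A1bg, a plasma glycoprotein gene, stood at 142 CPM beside 0.572 to 56.2 CPM in the other treated rats, Akr1b8 at 8.52 CPM beside 1.2 to 3.43, Lilrb4 at 4.67 CPM beside 1.27 to 2.19 and Spp1 at 2.88 CPM beside 0.0554 to 1.14. Cyp2d1 was lowest there, at 839 CPM beside 939 to 1010. Rat MA026_L had the highest Hamp of the treated rats, 605 CPM beside 434 to 513.

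Among controls, Sds, a serine-degrading enzyme, stood at 326 CPM in MC009_L beside 18.7 to 129 in the others. Nr1d1 was highest in MC011_L, at 7.69 CPM beside 2.42 to 4.8, and Zscan20 in MC007_L, at 7.95 CPM beside 5.94 to 6.58. None of these genes passed the test at furan 0.03.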

How the results depend on the processing

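The count of 9 calls at furan 0.03 depended on the processing. It was 0 with only the 16 control and 0.03 rats, 0 with limma voom, 1 without a filter on low counts, 2 with run 1 alone, 49 with DESeq2 and 81 with limma voom and rat quality weights; leaving out 1 rat at a time gave 0 to 62. RLE size factors (7), a minimum count of 50 (12) and run 2 alone (10) stayed within 1.5 times. The cause of these shifts was not tested. The 9906 genes bounded within 1.5-fold became 9647 to 9828 with 1 rat left out and 5372 with Bonferroni-widened intervals, which are wider by construction. The median reach of the interval, 0.21 log2 units, was 0.22 with any 1 rat left out and 0.48 without the filter, which adds scarce genes. Over the alternatives, Klf13 ran from 0.85 to 1.01, Lpin1 from 1.37 to 1.73 and Zfp354a from 1.58 to 1.94. Among named genes that passed the test in the reported or the alternative fit, 0 results changed sign. Sign changes of genes that passed in neither were not counted. All these fits reuse the same rats, so the unchanged signs are no separate evidence. No paired analysis was possible because the rat numbers of the groups are not shared.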
